A study of Mus musculus with 19 samples.

Results

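The NF-kB system was followed through 10 genes, its 5 subunits (Nfkb1, Nfkb2, Rel, Rela and Relb) and 5 inhibitors (Nfkbia, Nfkbid, Nfkbie, Nfkbiz and Tnfaip3). They were taken by name from the 49671 genes of a mouse brain RNA-seq series, and each of the 10 passed the filter on low values. In 13-month-old mice that overexpress human α-synuclein, 4 of the 5 inhibitor transcripts were 2.37 to 4.69-fold higher than in wild-type mice of that age, and 0 of the 5 subunit transcripts passed the test; of all genes tested 12.2% were called, and 4.87% were called higher. At 3 months 0 of the 10 were called, against 0% of all genes. None of the 10 was called between ages within α-synuclein mice, against 1.62% of all genes. The 13-month wild-type group had the lowest mean of the 4 groups for each of the 10 genes, subunits as well as inhibitors.

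NF-kB is a family of transcription factors that act as pairs of subunits and are held inactive in the cytoplasm by IkB proteins. Signals from receptors for cytokines and microbial products switch on the IkB kinase complex, which marks IkB for destruction and frees the pair to enter the nucleus. Several inhibitors are themselves transcribed in response to NF-kB and end the response, a feedback loop well known from microglia and other macrophages.

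The samples were RNA of microglia-enriched brain homogenate, 1 library per mouse, on the B6D2F1/J background. HEM mice overexpress full-length human wild-type α-synuclein, a presynaptic protein that aggregates in Parkinson disease, from an X-linked transgene driven by the promoter of mouse Thy-1. That promoter is known for activity in neurons rather than in microglia. The groups were HEM at 13 months (8 mice), WT at 13 months (4 mice), HEM at 3 months (4 mice) and WT at 3 months (3 mice). WT mice were the controls, and the human transgene was not analysed here. The questions the design poses are how HEM differed from WT at each age and how 13-month mice differed from 3-month mice within each genotype.

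Libraries held 63.3 to 95.8 M reads counted to genes in 13-month HEM mice, 93.2 to 124.5 M in 13-month WT mice, 74.7 to 112.9 M in 3-month HEM mice and 83.0 to 106.8 M in 3-month WT mice (M, 1e6 reads). Values below are normalized counts, that is, reads divided by 1 size factor per library, and within-group correlations of log2 values were 0.942 to 0.981. All 10 microglia markers looked up, P2ry12 and Tmem119 among them, were present in every group. In HEM against WT mice 0 of the 10 were called at 13 or 3 months, against 12.2% and 0% of all genes. Between ages 0 of the 10 were called in HEM or WT mice, against 1.62% and 0.709%. For the difference between the genotype effects at 13 and 3 months it was also 0, against 0%. Their mean log2 level ranged from 14.96 to 16.46 in 13-month HEM mice and from 15.42 to 16.23 in 13-month WT mice. Markers of other brain and blood cells were present too, so a level is that of a cell mixture, and in such bulk samples a change in the number of cells of a type cannot be told apart from a change in RNA per cell. On the first principal component 13-month HEM replicate 1 (-130) and 3-month HEM replicate 3 (-68.4) lay outside the range of the other libraries (-33.0 to 63.2). An alternative chosen from an earlier look left out these 2 and 13-month HEM replicate 11, which does not stand apart there.

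The stretch before the transcription start is where NF-kB itself can bind genes of its own inhibitors, so these stretches are shown for genes that differed at 13 months and, for contrast, for Nfkbie and Rela, which did not pass the test. RefSeq starts were available for 7 of the 10 genes (not Nfkb1, Relb and Nfkbiz), with 12 windows of 250 bases in mm10. Exons annotated in GENCODE M21 were trimmed from what is printed. Capitals mark matches to the 10-base kappa-B consensus on either strand, and each line runs 5′ to 3′ toward the start.
Nfkbia, chr12:55492648-55492897, minus strand: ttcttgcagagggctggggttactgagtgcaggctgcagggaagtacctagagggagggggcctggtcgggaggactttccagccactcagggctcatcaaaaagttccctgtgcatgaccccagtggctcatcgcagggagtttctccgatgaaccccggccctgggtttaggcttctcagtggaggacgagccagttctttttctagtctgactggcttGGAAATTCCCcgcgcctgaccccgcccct
Nfkbid, chr7:30422156-30422405, plus strand: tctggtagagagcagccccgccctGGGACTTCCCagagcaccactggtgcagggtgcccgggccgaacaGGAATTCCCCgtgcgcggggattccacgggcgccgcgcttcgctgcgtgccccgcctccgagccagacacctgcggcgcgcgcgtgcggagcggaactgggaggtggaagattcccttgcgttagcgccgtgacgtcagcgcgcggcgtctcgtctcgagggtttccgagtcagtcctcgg
Tnfaip3, chr10:19015411-19015547, minus strand: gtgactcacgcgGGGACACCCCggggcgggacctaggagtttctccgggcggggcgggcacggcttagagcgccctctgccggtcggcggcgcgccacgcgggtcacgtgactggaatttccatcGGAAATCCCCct
Nfkbie, chr17:45555450-45555699, plus strand: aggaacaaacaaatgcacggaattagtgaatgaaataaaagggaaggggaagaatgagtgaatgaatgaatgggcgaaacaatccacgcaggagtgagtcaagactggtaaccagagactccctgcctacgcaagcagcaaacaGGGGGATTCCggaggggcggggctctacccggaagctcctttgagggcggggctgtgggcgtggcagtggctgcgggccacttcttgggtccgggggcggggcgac
Rela, chr19:5637291-5637482, plus strand: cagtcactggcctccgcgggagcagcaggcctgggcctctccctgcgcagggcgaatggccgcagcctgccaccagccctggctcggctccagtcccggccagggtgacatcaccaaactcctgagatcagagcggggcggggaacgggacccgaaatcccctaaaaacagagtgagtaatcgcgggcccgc
In Nfkbia the match GGAAATTCCC began 29 bases before the start. Nfkbid carried GGGACTTCCC and GGAATTCCCC, 226 and 181 bases before 1 of its 3 RefSeq starts, which lies in an intron of another of its transcripts. Tnfaip3 carried GGGACACCCC at 125 bases and GGAAATCCCC at 12 bases before a RefSeq start that lies within the annotated gene. Nfkbie had GGGGGATTCC at 106 bases, although its transcript was not called in any comparison, and the Rela window held no match. The subunit genes Rel (GGGAAATCCCC, 92 bases before the start) and Nfkb2 (among others GGGGCTTTCC, 11 bases before) also held matches. That window of Nfkb2 lies wholly within annotated exons. In all, 6 of the 7 genes had a match, against 4.46% of 27025 mouse genes with windows of this length. These matches are letters in a sequence and were not tested for binding.

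Levels differed widely within the family once counts were divided by exon length. That length covers all annotated exons of a gene merged, 12.06 kilobases for Nfkb1 and 3.072 for Rela, and the ranks depend on it. In undivided counts Rel was not last: in 13-month HEM mice it averaged 3601, against 2459 for Relb and 1852 for Nfkbie. Per kilobase of exon, Nfkbia, the IkBα protein that traps Rela-containing pairs, ranked first of the 10 in each of the 4 groups, with means of 26073 normalized counts per kilobase in 13-month HEM and 11014 in 13-month WT, and 26619 in 3-month HEM and 24239 in 3-month WT. Rela, the transactivating p65 subunit, ranked second in each group, at 3522 and 3410.5 in 13-month HEM and WT, and 3639 and 3592 in 3-month HEM and WT. Rel, the c-Rel subunit of myeloid and lymphoid cells, ranked last in each group, at 482 per kilobase in 13-month HEM and 359 in 13-month WT. In the 13-month WT group Tnfaip3, at 359 per kilobase, was next to Rel, and these neighbours differed by less than their spread (SD 108 and 74.8, n = 4).

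Of the subunits, Nfkb1 and Rela were nearly level across the 4 groups, while group means of Rel, Nfkb2 and Relb varied more. Nfkb1, which encodes p105 and its product p50 (chr3:135584655-135691547, mm10), ranged over 9901, 11568 and 13168 normalized counts (lowest, median and highest) in the 8 HEM mice at 13 months, against 10331, 12194, 10179.9 and 12084 in the 4 WT mice. The WT values all lie within the HEM range. The log2 difference was 0.06 ± 0.09 (SE; adjusted p = 0.746 by limma-trend with Benjamini-Hochberg adjustment over 23973 genes), with a 95% interval of -0.12 to 0.25. At 3 months Nfkb1 had 11771, 13189, 12727 and 11234 in HEM mice and 13171, 10709 and 13214 in WT mice, again overlapping.

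Rela (chr19:5637483-5648130) ranged over 9429, 10389 and 13052 normalized counts in 13-month HEM mice, against 9065, 11303, 10592 and 10949 in WT mice, a log2 difference of 0.04 ± 0.09 (adjusted p = 0.855, 95% interval -0.16 to 0.24, limma-trend). Nfkb2, which encodes p100 and its product p52 of the non-canonical pathway (chr19:46304320-46312385), averaged 3777 ± 722 in 13-month HEM mice and 3191 ± 96.0 in WT mice (SD, n = 8 and 4), a log2 difference of 0.22 ± 0.17 (adjusted p = 0.465, limma-trend). Of the exon bases of Nfkb2, 18.1% are overlapped by Psd and a clone gene on the opposite strand, and no strand setting of the counting is given in the sources used here. Relb (chr7:19606217-19629438), its usual partner, averaged 2459 ± 368 in 13-month HEM mice and 2297 ± 118 in WT mice, a log2 difference of 0.09 ± 0.14 (adjusted p = 0.789, limma-trend). The HEM and WT ranges overlapped for each of these 3 subunits.

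Rel (chr11:23736847-23770970) was the subunit with the largest difference at 13 months. Its lowest, median and highest values were 2909, 3543 and 4811 normalized counts in HEM mice, against 2756, 2285, 2247 and 3446 in WT mice. All 8 HEM values lay above the WT median and 4 lay above every WT value. The log2 difference was 0.43 ± 0.15, which missed the threshold (adjusted p = 0.0618, 95% interval 0.12 to 0.74, limma-trend). It passed with DESeq2 (adjusted p = 0.0419, where 18.6% of all genes were called) and with limma voom and quality weights (adjusted p = 0.0234, where 14.7% were), and in 3 of 19 fits that each left out 1 library.

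**Figure D1:**
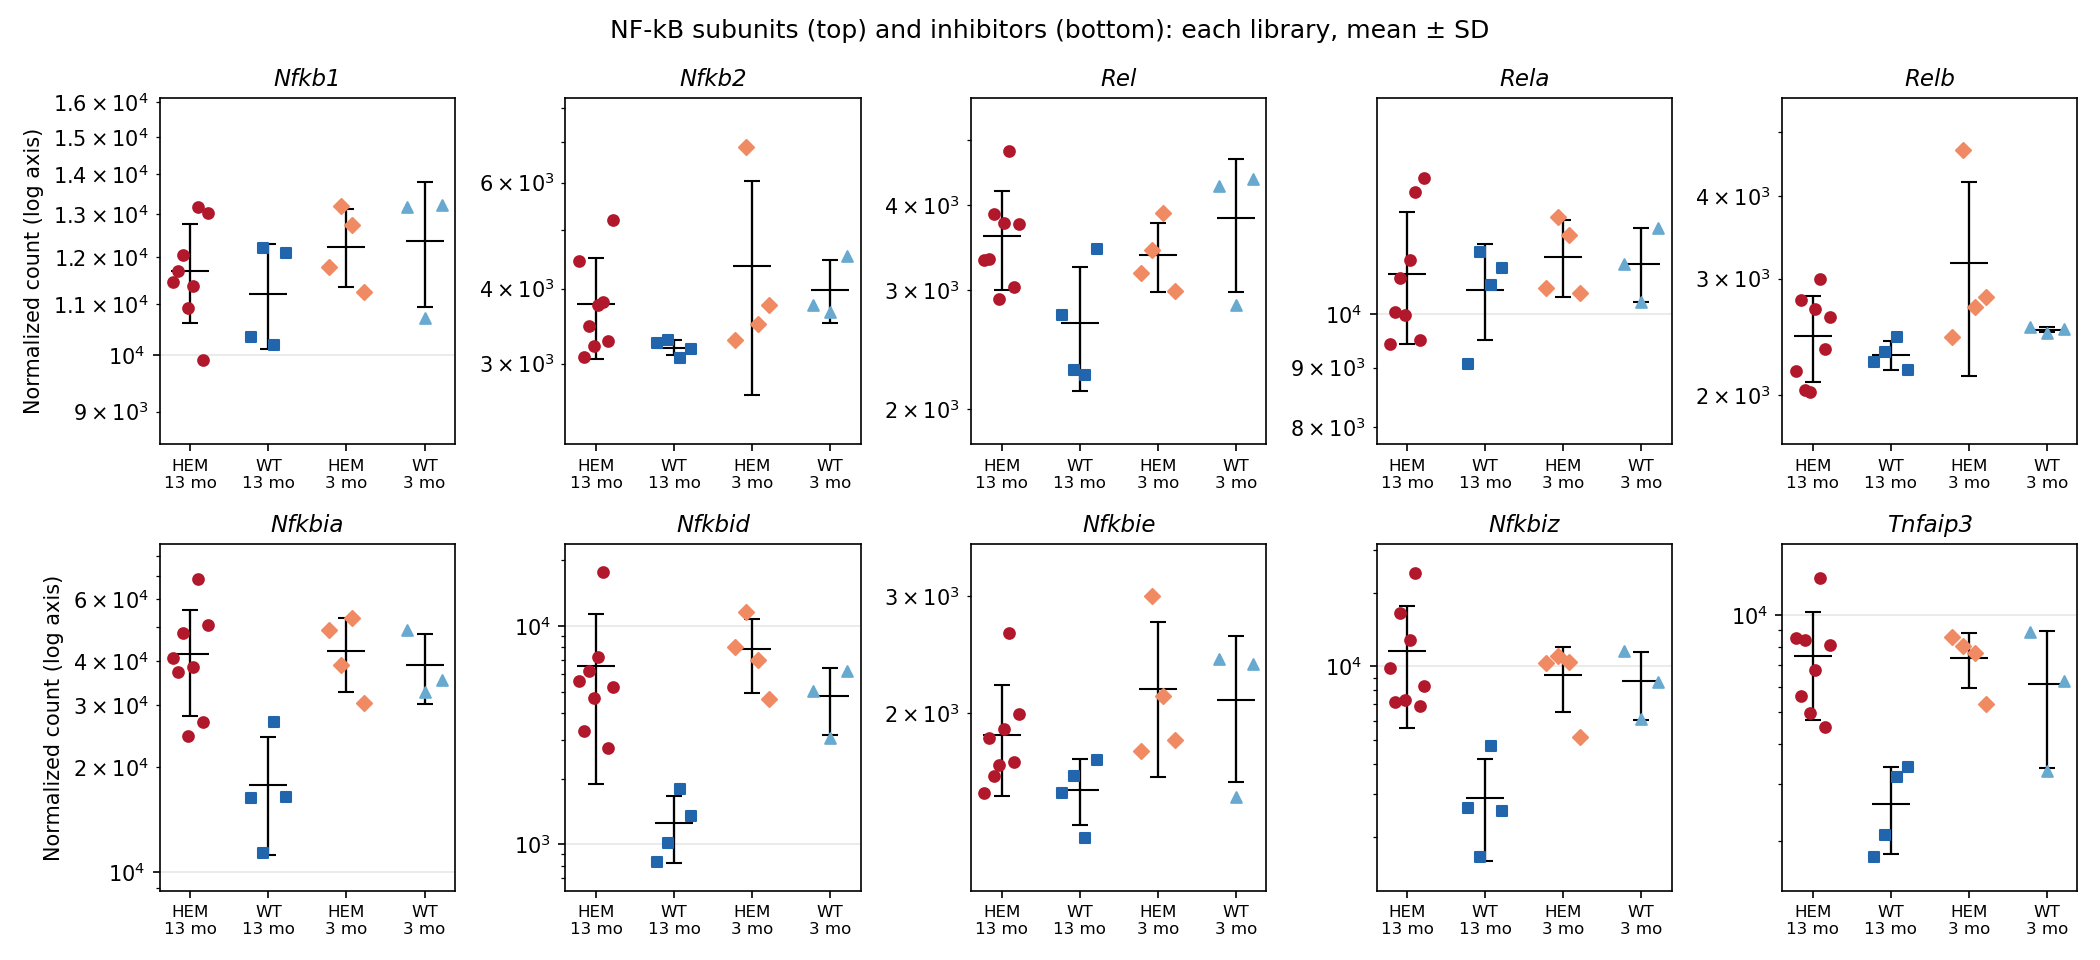
Normalized counts (log axis) of the 10 genes in each library of the 4 groups; points are libraries, horizontal lines the mean and bars the SD (n = 8, 4, 4 and 3). Nfkbia, Nfkbid, Nfkbiz and Tnfaip3 sit lowest in 13-month WT mice, while Nfkb1 and Rela stay level.

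Transcripts of 4 inhibitors were higher in HEM than in WT mice at 13 months. Nfkbia, on chr12:55489410-55492647, ranged over 24552, 39692 and 68488.5 normalized counts (lowest, median and highest) in the 8 HEM mice, against 16283, 11326, 26902 and 16418 in the 4 WT mice. Of the HEM values 6 lay above every WT value; the groups overlapped only through WT replicate 8 and HEM replicates 7 and 12. The difference was 1.24 ± 0.25 on the log2 scale, or 2.37-fold (95% interval 1.64 to 3.41, adjusted p = 0.00418, limma-trend).

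Nfkbid (chr7:30421732-30428746) encodes IkBNS, a nuclear IkB protein that modulates transcription of cytokine genes. It ranged over 2761, 5422 and 17617 normalized counts in 13-month HEM mice, against 834, 1014, 1799 and 1352 in WT mice. The lowest HEM library lay above the highest WT library, and HEM replicate 11 stood far above the other HEM libraries. The log2 difference was 2.23 ± 0.37, or 4.69-fold (95% interval 2.73 to 8.05, adjusted p = 0.00213, limma-trend); without replicate 11 it was 1.99 (adjusted p = 0.00284).

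Nfkbiz (chr16:55811375-55838899) encodes IkBζ, a nuclear IkB protein known as a coactivator of secondary response genes such as Il6, so its name as an inhibitor covers only part of what it does. It ranged over 6909, 9077 and 24043 normalized counts in 13-month HEM mice, against 2616, 1657, 4710.1 and 2549 in WT mice. The groups did not overlap. The log2 difference was 1.97 ± 0.33, or 3.92-fold (95% interval 2.41 to 6.36, adjusted p = 0.00213, limma-trend).

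Tnfaip3 (chr10:19000910-19015657) encodes A20, an enzyme that edits ubiquitin chains on signalling proteins upstream of the IkB kinases and so shuts the pathway off. It ranged over 4512, 7429 and 13091 normalized counts in 13-month HEM mice, against 1781, 2088, 3144 and 3378 in WT mice. Every HEM library lay above every WT library. The log2 difference was 1.5 ± 0.28, or 2.83-fold (95% interval 1.89 to 4.23, adjusted p = 0.00281, limma-trend).

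Nfkbie, the IkBε gene (chr17:45555703-45563169), did not pass the test. It ranged over 1509.9, 1757 and 2640.0 normalized counts in 13-month HEM mice, against 1513, 1606, 1291 and 1697 in WT mice. The groups overlapped, with 4 HEM values above every WT value, and the log2 difference was 0.27 ± 0.17 (adjusted p = 0.359, 95% interval -0.08 to 0.61, limma-trend).

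Counted together, 4 of the 10 genes were called in 13-month HEM against WT mice, against 12.2% of all genes tested, and all 4 were higher, against 4.87% of all genes called higher. The groups did not overlap for Nfkbid, Nfkbiz and Tnfaip3, 3 of 10, each higher in HEM, against 2.69% of all genes. The median log2 difference was 1.5 over the 5 inhibitors and 0.09 over the 5 subunits, against 0.03 over all genes tested. The 4 calls were kept in each of the 19 fits that left out 1 library and in 12 of 15 other alternatives. They were lost (0 called of the 10, with 0 called over all genes) with the number in the label as a block, with the neutrophil and erythroid marker level as a covariate and with the immediate early gene level as a covariate. Only numbers 7 and 8 occur in both 13-month groups, so the block rests this comparison on few libraries.

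Summed per kilobase in each library, the inhibitors stood to the subunits at a ratio of 5.02 ± 1.36 in 13-month HEM mice and 2.19 ± 0.80 in WT mice (SD, n = 8 and 4), and of 4.92 ± 1.21 in 3-month HEM mice and 4.44 ± 0.91 in WT mice (SD, n = 4 and 3). The lowest ratio in 13-month HEM mice, 3.46, lay above the highest in 13-month WT mice, 3.27. Nfkbia made up 79.3% to 84.4% of the summed inhibitors in the 4 groups, so this ratio is mainly that of Nfkbia.

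**Figure D2:**
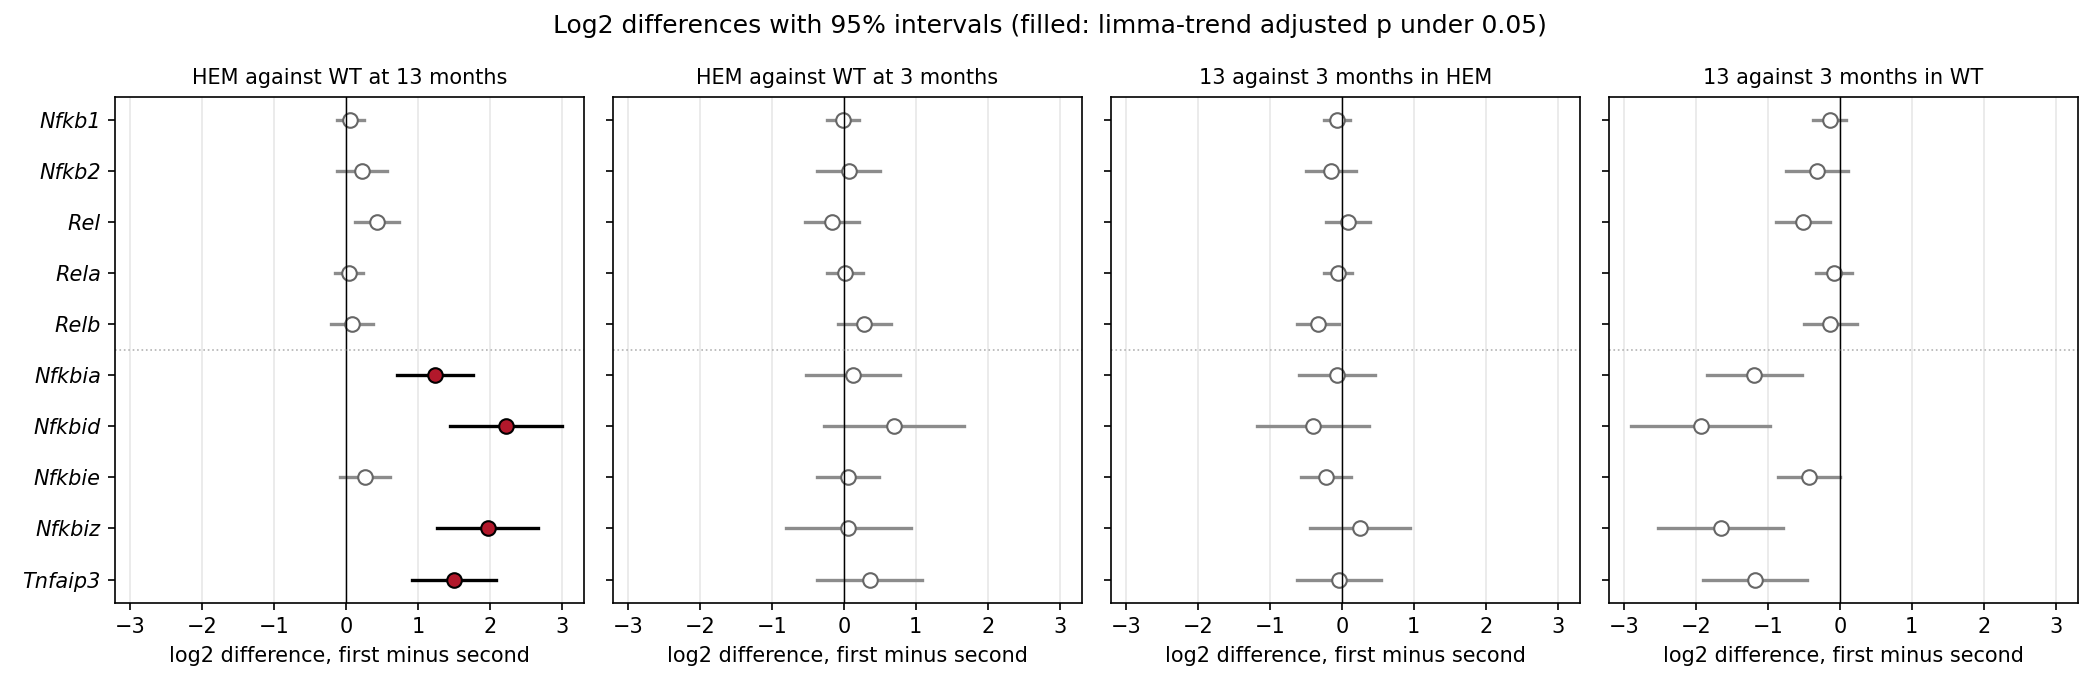
Log2 differences of the 10 genes with 95% intervals in the 4 comparisons, first-named group minus the second (limma-trend; filled points have an adjusted p under 0.05). The 4 filled points, between 1.24 and 2.23, are Nfkbia, Nfkbid, Nfkbiz and Tnfaip3 in HEM against WT at 13 months.

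At 3 months HEM and WT mice were not separated by any of the 10 genes. Nfkbid had 8001, 11607, 6986 and 4647 normalized counts in HEM mice, against 5044, 3054 and 6245 in WT mice, the largest difference of the 10, at 0.69 ± 0.46 on the log2 scale (adjusted p = 1.0, 95% interval -0.28 to 1.66, limma-trend). Nfkbia had 49026, 39002, 53009 and 30387 in HEM mice, against 49077, 32745 and 35253 in WT mice, and Tnfaip3 had 8572, 8061, 7645 and 5311, against 8869, 3302 and 6269. The HEM and WT ranges overlapped for each of the 10 genes, whereas 5.86% of all genes had ranges that did not. The count called was 0 of 10 with limma-trend, edgeR, DESeq2 and limma voom alike, against 0% of all genes by limma-trend and 0.0251% by DESeq2. At an unadjusted p under 0.05 it was 0 of 10 with limma-trend, against 3.85% of all genes. The intervals were wide: that of Nfkbiz, -0.81 to 0.93, leaves a change of up to that size undetected with 4 and 3 mice.

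In 3-month HEM mice, replicate 3 held the highest value of the group for Nfkb2 (6881, the other 3 at 3288 to 3751), Relb (4698, the other 3 at 2444 to 2817) and Nfkbie (2999.6, the other 3 at 1751 to 2119). Relb was 0.29 ± 0.18 higher in HEM than in WT mice at 3 months on the log2 scale, short of the threshold (adjusted p = 1.0, limma-trend), and 0.08 without that library. The difference of Nfkb2 at 3 months was 0.07 with it and -0.18 without it.

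Age was compared within each genotype. In HEM mice, 0 of the 10 genes were called between 13 and 3 months by limma-trend, against 1.62% of all genes, and 1, Relb, had an unadjusted p under 0.05, against 16.6% of all genes (log2 difference -0.33 ± 0.14, adjusted p = 0.247; -0.12 without 3-month HEM replicate 3). The count was also 0 with edgeR, DESeq2 and limma voom, which called 1.55%, 6.05% and 6.12% of all genes. Nfkbia differed by -0.07 ± 0.25 between ages in HEM mice (95% interval -0.59 to 0.46), Tnfaip3 by -0.04 ± 0.28 (-0.62 to 0.54) and Nfkbiz by 0.25 ± 0.33 (-0.45 to 0.95).

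In WT mice the same inhibitors had lower values at 13 than at 3 months, but none passed the main test. Nfkbid had 834, 1014, 1799 and 1352 normalized counts in 13-month WT mice, against 5044, 3054 and 6245 in 3-month WT mice, and Nfkbiz had 2616, 1657, 4710.1 and 2549, against 11549, 6068 and 8637. For both genes, and for Nfkbia, the ages did not overlap. The log2 differences were -1.93 ± 0.46 for Nfkbid (adjusted p = 0.0535), -1.65 ± 0.42 for Nfkbiz (adjusted p = 0.0614), -1.18 ± 0.31 for Nfkbia (adjusted p = 0.0726) and -1.18 ± 0.34 for Tnfaip3 (adjusted p = 0.0952), all by limma-trend. That of Rel was -0.51 ± 0.18 (adjusted p = 0.164).

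The count in WT mice was thus 0 of 10 with limma-trend, against 0.709% of all genes, with 5 of 10 at an unadjusted p under 0.05, against 15.5% of all genes. It was 0 with edgeR (0.43% of all genes), 4 with DESeq2 (Nfkbia, Nfkbid, Nfkbiz and Tnfaip3, against 6.3% of all genes) and 5 with limma voom (those 4 and Rel, against 5.24%). It was 3 without 13-month HEM replicate 7 (1.95% of all genes), 2 without replicate 11 (0.859%) and 1 without replicate 3 (0.997%), libraries that enter this comparison only through the shared spread. Nfkbid alone passed with a filter at 50 (1.58% of all genes) and in a fit of the WT groups alone (0.321%), and Nfkbid and Nfkbiz passed without 13-month HEM replicates 1 and 11 and 3-month HEM replicate 3 (1.07%). Groups did not overlap for 5 of 10, Nfkb2, Relb, Nfkbia, Nfkbid and Nfkbiz, each lower at 13 months, against 6.46% of all genes. The 4 WT mice at 13 months are shared with the HEM comparison at that age, so the 2 sets of differences are not independent.

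The difference between the genotype effects at 13 and 3 months, an interaction term, was called for 0 of the 10 genes by limma-trend, against 0% of all genes, although 5 of the 10 had an unadjusted p under 0.05 (Rel, Nfkbia, Nfkbid, Nfkbiz and Tnfaip3), against 14.8% of all genes. The largest was Nfkbiz, at 1.91 ± 0.53 (adjusted p = 0.111). It was called by DESeq2 (adjusted p = 0.0191), where 5.37% of all genes were, and 0 of the 10 were called by edgeR (0% of all genes) and by limma voom (3.31%). The genotype difference at 13 months is therefore not shown to differ from that at 3 months by the main test.

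**Figure D3:**
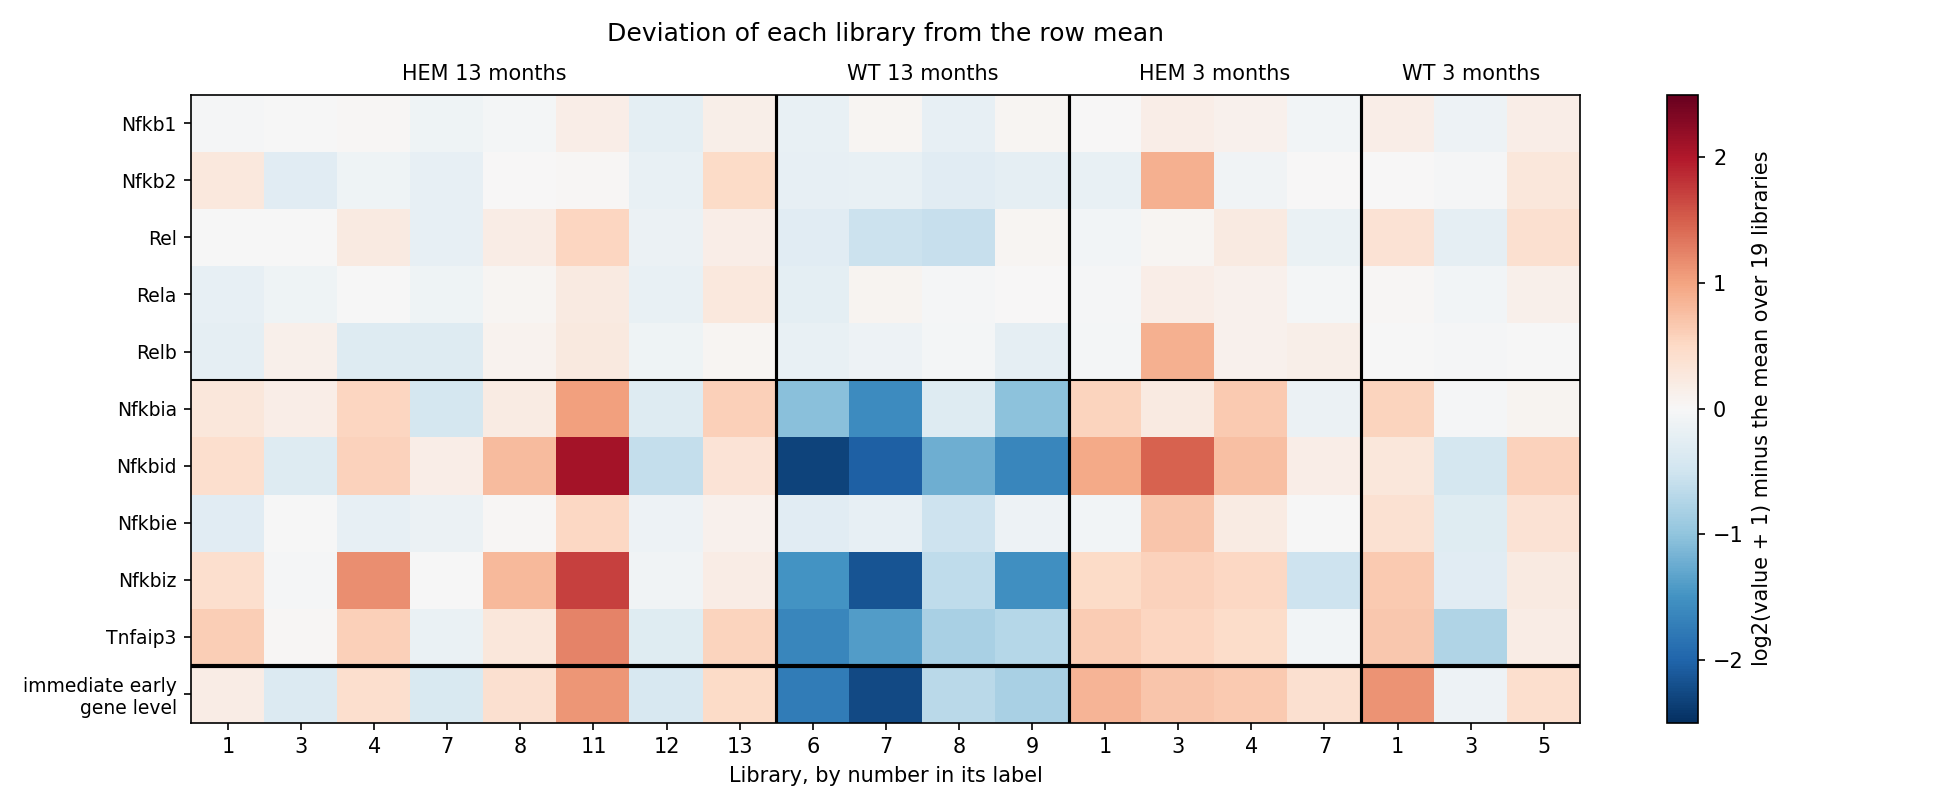
Deviation of each library's log2(value + 1) from the mean over the 19 libraries (colour) for the 10 genes, subunits above inhibitors, with the mean level of 20 immediate early genes in the bottom row. The 4 libraries of 13-month WT mice are below the mean for Nfkbia, Nfkbid, Nfkbiz and Tnfaip3 and for the immediate early row, and 13-month HEM replicate 11 is highest for all 4.

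Nfkbia, Nfkbid, Nfkbiz and Tnfaip3 varied together from mouse to mouse. Pairwise Pearson r of log2 values over the 19 libraries was 0.88 to 0.94 among Nfkbia, Nfkbid, Nfkbiz and Tnfaip3, and 0.68 to 0.85 for deviations from the group means. Nfkb1 and Rela also moved together (r = 0.81), while Nfkbia was loosely related to Relb (r = 0.35) and Nfkb2 (r = 0.38). Spread within 13-month HEM mice differed as well: the highest library was 6.38 times the lowest for Nfkbid and 3.48 times for Nfkbiz, against 1.33 times for Nfkb1 and 1.38 times for Rela. Among 14270 genes with a mean value of at least 100, the profile over the 19 libraries most like Nfkbia was Klf6 (r = 0.98), like Nfkbid Egr2 (r = 0.96), like Nfkbiz Sertad1 (r = 0.95), like Tnfaip3 Plk3 (r = 0.96) and like Rel Tal1 (r = 0.92). Like Nfkb1 was Rnf19b (r = 0.95), like Nfkb2 Fndc9 (r = 0.85), like Rela B4galt1 (r = 0.87), like Relb Phf11d (r = 0.86) and like Nfkbie Trp53 (r = 0.85). The mean of the 10 genes was most like Icam1 and Zc3h12a (r = 0.93 each), Plk3 and Themis2 (r = 0.91 each), and Map3k14 and Cd14 (r = 0.90 each). These are correlations across libraries that share groups and preparation, given as descriptions.

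Immediate early genes, a list of 20 that includes Fos, Jun, Egr1 and Klf6 and is known to be induced by tissue dissociation as well as by signalling, moved with the 4 inhibitors. Of the 20, 17 were higher and 0 lower in 13-month HEM than in WT mice, against 4.87% of all genes called higher and 7.3% lower. Their mean log2 level was 14.34 ± 0.53 in 13-month HEM mice and 12.78 ± 0.75 in WT mice (SD, n = 8 and 4), and 14.80 ± 0.19 in 3-month HEM mice and 14.63 ± 0.62 in WT mice (SD, n = 4 and 3). Their summed normalized counts ranged from 643548 to 1810740 in 13-month HEM mice and from 198343 to 574244 in WT mice, with none of the 20 at 0. In 13-month WT against 3-month WT mice 8 of the 20 were lower, against 0.246% of all genes called lower. With the mean log2 level as a covariate, the 13-month differences were 0.17 for Nfkbia, 0.76 for Nfkbid, 0.56 for Nfkbiz and 0.24 for Tnfaip3 (adjusted p = 0.762, 0.338, 0.383 and 0.599, limma-trend). In that fit 0% of all genes were called at 13 months. The level did not overlap between the 13-month groups (13.76 to 15.26 in HEM, 11.91 to 13.48 in WT mice), so the fit separates level and genotype poorly.

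Within the 8 HEM mice at 13 months alone, the 4 inhibitors and Rel followed the immediate early level by Pearson's r. Nfkbia had a Pearson r of 0.92 (adjusted p = 0.00496, exact permutation test, Benjamini-Hochberg over 20 relations) and a Spearman rho of 0.95 (adjusted p = 0.0228, exact permutation). Tnfaip3 had r = 0.95 and rho = 0.83 (adjusted exact permutation p = 0.00744 and 0.0615), Nfkbid r = 0.91 and rho = 0.81 (0.00744 and 0.0622), Nfkbiz r = 0.89 and rho = 0.83 (0.00744 and 0.0615) and Rel r = 0.95 and rho = 0.88 (0.00546 and 0.0483). Without replicates 11 and 12, the farthest from the median level, r was 0.81 for Nfkbia, 0.86 for Tnfaip3, 0.79 for Nfkbid, 0.71 for Nfkbiz and 0.89 for Rel. For Nfkb1 (r = 0.81, adjusted exact permutation p = 0.0564) and Rela (r = 0.79, 0.0628) Pearson's r missed the threshold, and Relb had r = 0.44 (0.475). By Spearman's rho Nfkb1 passed (0.90, adjusted exact permutation p = 0.0456) and Rela did not (0.81, 0.0622). Without replicates 11 and 12 the r of Nfkb1 was 0.61.

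**Figure D4:**
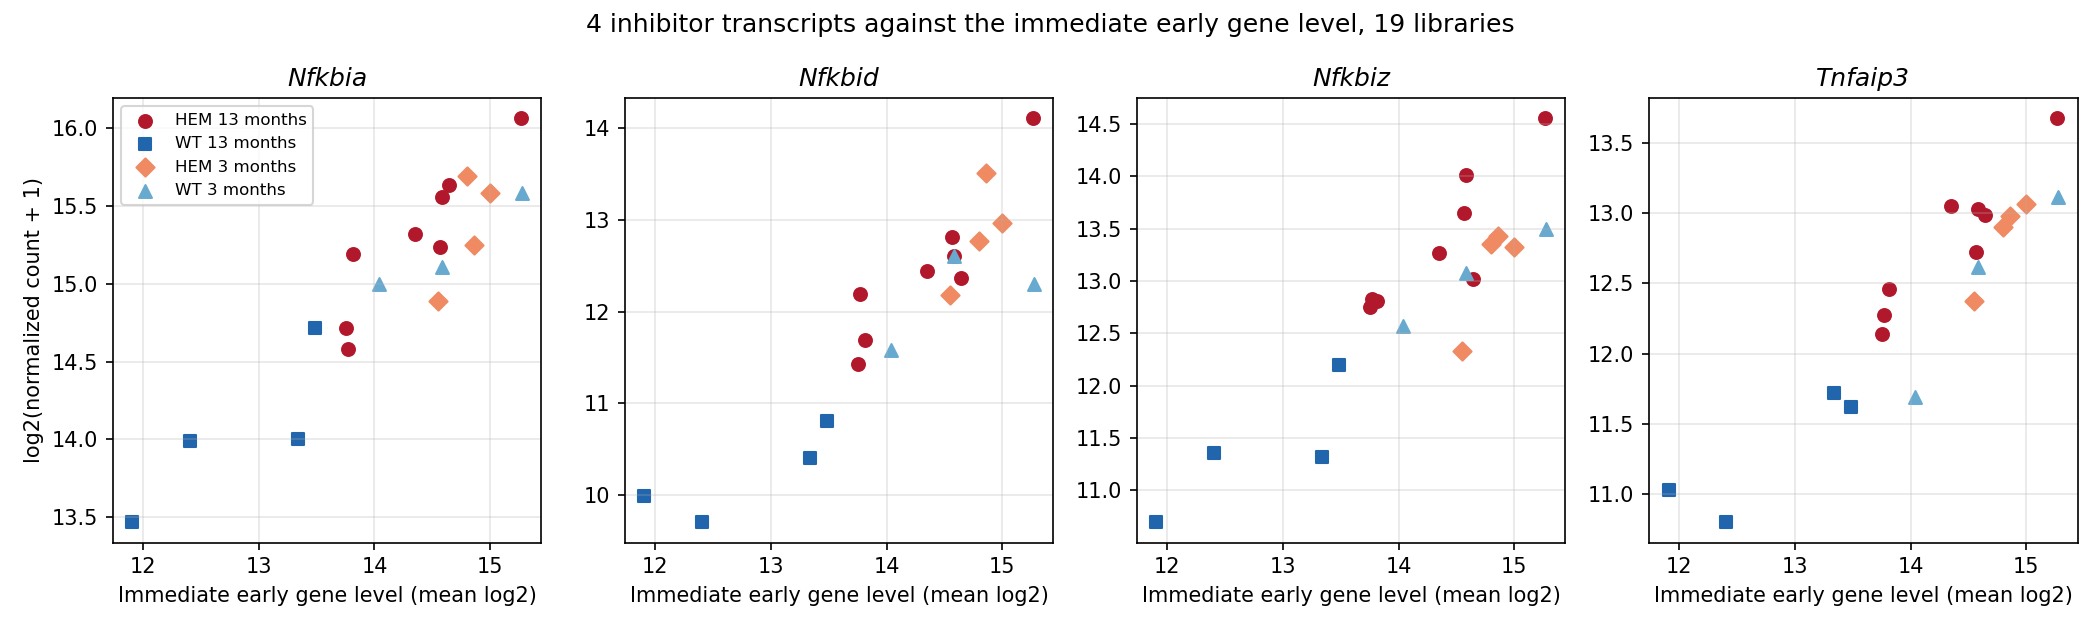
Log2(normalized count + 1) of Nfkbia, Nfkbid, Nfkbiz and Tnfaip3 against the mean log2 level of 20 immediate early genes, each point 1 of 19 libraries. On the horizontal axis the 13-month WT libraries lie at the low end (levels 11.91 to 13.48) and the 13-month HEM libraries at 13.76 to 15.26. The 13-month WT libraries are also low on the vertical axis. For Nfkbia, however, 13-month WT replicate 8 (14.7155) lies above 13-month HEM replicates 7 (14.5836) and 12 (14.7147).

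Markers of several blood cell types were also higher in HEM than in WT mice at 13 months. Over all genes tested, 4.87% were called higher and 7.3% lower in that comparison. All 12 neutrophil and granulocyte precursor markers were higher in HEM than in WT mice, with summed normalized counts of 64654 to 564884 in HEM and 37850 to 104275 in WT mice and none at 0. Of the monocyte markers 5 of 6 were higher (12775 to 65147 in HEM mice, 7226 to 12639 in WT mice), of erythroid markers 2 of 7 (441532 to 1498450 and 287213 to 703198), of T and NK cell markers 4 of 8 (6007 to 20648 and 2646 to 7382) and of B cell markers 1 of 6 (41188 to 90086 and 35139.9 to 51647). All 6 choroid plexus markers were lower (1360320 to 2670480 in HEM mice, 3407780 to 4094910 in WT mice). Endothelial, neuron, oligodendrocyte and border-associated macrophage lists had 0 called, and 1 of 6 astrocyte markers was lower. With the neutrophil and erythroid level as a covariate, the differences at 13 months were 1.21 for Nfkbia, 2.05 for Nfkbid, 1.74 for Nfkbiz and 1.52 for Tnfaip3, with wider errors (adjusted p = 0.392 for Nfkbia and 0.388 for the others, limma-trend). In that fit 0% of all genes were called at 13 months. The mean log2 level was 12.53 to 14.82 in HEM and 11.03 to 12.60 in WT mice, so the fit separates level and genotype poorly. Within the 8 HEM mice at 13 months, no relation of that level to the 10 genes passed the threshold (largest Pearson r 0.49, for Nfkb2, smallest adjusted exact permutation p = 0.422). Without replicates 3 and 7, r was negative for all 10 genes and reached -0.94 for Nfkbid. The part of the other marker lists in the differences was not tested.

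The core of the IkB kinase complex was not called at 13 months: the log2 difference between HEM and WT mice was 0.05 ± 0.07 for the kinase Chuk, 0.17 ± 0.08 for the kinase Ikbkb and -0.07 ± 0.08 for the scaffold Ikbkg (adjusted p = 0.735, 0.22 and 0.673, limma-trend). Of the 11 genes of the complex and its activators, 3 were higher and 0 lower (median log2 difference 0.06), against 4.87% of all genes called higher. Map3k8, the kinase Tpl2 that p105 binds and restrains, averaged 1774 ± 255 normalized counts in HEM mice and 1019 ± 253 in WT mice, a log2 difference of 0.82 ± 0.14 (adjusted p = 0.00218, limma-trend). Ikbke, a kinase of interferon and NF-kB signalling, averaged 1232 ± 220 in HEM mice and 695 ± 52.7 in WT mice (0.81 ± 0.17, adjusted p = 0.00554), and the third was Tab3, an adaptor of the kinase TAK1. Of 7 other IkB proteins and IkB-binding factors 1 was lower, against 7.3% of all genes called lower. That gene, Commd1, which promotes removal of Rela from chromatin, averaged 1162 ± 122 in HEM mice and 1533 ± 205 in WT mice (-0.40 ± 0.10, adjusted p = 0.0136, limma-trend). Ankrd42 was just short of the threshold (-0.57 ± 0.18, adjusted p = 0.0504).

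Among 14 deubiquitinases and other negative regulators, 1 was higher and 2 lower in HEM than in WT mice at 13 months (median 0.01), against 12.2% of all genes called in either direction. Zc3h12a, regnase-1, which degrades inflammatory mRNAs, averaged 2344 ± 603 normalized counts in HEM mice and 1162 ± 204 in WT mice (log2 difference 0.99 ± 0.20, adjusted p = 0.00465, limma-trend). Rnf11, a subunit of the A20 ubiquitin-editing complex, averaged 8343 ± 554 in HEM mice and 10687 ± 1040.3 in WT mice (-0.35 ± 0.07, adjusted p = 0.00457), and Tax1bp1, an A20 adaptor, was lower by a smaller amount. Of 22 adaptors and ubiquitin ligases, 3 were higher and 0 lower (median 0.23), against 4.87% of all genes called higher. The 3 were Malt1, a protease of the CARD-BCL10 complex (0.42 ± 0.09, adjusted p = 0.00457, limma-trend), Birc3, a ubiquitin ligase (0.52 ± 0.14, adjusted p = 0.0180), and Irak3.

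Of 17 receptors and ligands, 2 ligands were higher at 13 months and no receptor passed the test (median 0.22). Of all genes 4.87% were called higher. Tnf averaged 8029 ± 5911 normalized counts in HEM mice and 1209 ± 773 in WT mice (log2 difference 2.70 ± 0.48, adjusted p = 0.00242, limma-trend), and Il1b averaged 6306 ± 3299 and 1461 ± 394 (1.96 ± 0.44, adjusted p = 0.00757). Both cytokines activate NF-kB through their receptors. Of 32 textbook NF-kB target genes, 16 were higher and 1 lower (median 1.20 against 0.03 over all genes), against 4.87% and 7.3% of all genes. Cxcl2, a neutrophil chemokine, averaged 2118 ± 932 in HEM mice and 426 ± 326 in WT mice (2.47 ± 0.42, adjusted p = 0.00225), and Ccl4 averaged 4580 ± 3196 and 871 ± 371 (2.27 ± 0.38, adjusted p = 0.00213). The 1 that was lower in HEM mice was Sod2, the mitochondrial superoxide dismutase (-0.66 ± 0.11, adjusted p = 0.00237). Some targets, such as Lcn2 and Mmp9, are also abundant in neutrophils, whose markers were higher in the same mice.

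At 3 months 5 of the 32 textbook target genes had an unadjusted p under 0.05 by limma-trend in HEM against WT mice, against 3.85% of all genes. Each other pathway list had 0 or 1 such gene. The median log2 difference of the 32 was 0.29, against 0.008 over all genes tested. None of these pathway genes was called between HEM and WT mice at 3 months by limma-trend, against 0% of all genes. Those with the smallest p of their list included Ccl4, at 8296 ± 4167 normalized counts in HEM mice and 2468 ± 1084 in WT mice (SD, n = 4 and 3; log2 difference 1.71 ± 0.48), Tnip1 (0.39 ± 0.13), Tnfsf13b (0.75 ± 0.31), Map3k8 (0.32 ± 0.17), Commd1 (-0.27 ± 0.12) and Ticam1 (-0.20 ± 0.17), each with an adjusted p of 1.0.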

How the data were processed

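The files as deposited hold a size-factor-scaled signal: within a library, each gene's reads carry the same divisor, which could be read from the numbers, since 100% of entries above 0 are whole multiples of the library's step (tolerance 0.01). The build mm10 and the tools HISAT2, Trimmomatic, DESeq2 and featureCounts are named per the submitters' processing notes; versions, annotation and strand setting are not given in the sources used here. Per the labels' protocols, RNA came from an AllPrep kit and libraries from a NEBNext Ultra II kit. Groups came from the labels, and libraries are named by group and the number in their label. Library depths open the results.

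Symbols, positions and exon lengths came from GENCODE M21 (49326 of 49671 IDs, 99.3%), and promoter sequences from RefSeq (mm10). Testing covered the 23973 genes that reached 10 in 3 or more libraries. The test was robust limma-trend (R 4.3.3 with limma 3.58.1) of log2(value + 1) in a joint model of the 4 groups, two-sided and Benjamini-Hochberg adjusted, with 0.05 as the threshold of a call; differences on that scale understate changes of low genes. The limma step was tested on simulated data. The count test on the recovered reads, edgeR 4.0.16 with TMM factors, called 2898 genes in HEM against WT at 13 months, against 2918 by limma-trend. DESeq2 1.42.0, limma voom and further alternatives are in the closing section.

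The members and lists were chosen with earlier results of these data known, so the pathway lists are no independent evidence of direction. Of each list the text names the 2 genes with the smallest p at 13 months and the 1 with the smallest p at 3 months; Chuk, Ikbkb, Ikbkg, Tab3, Tax1bp1, Irak3, Sod2, Lcn2 and Mmp9 were named after their values were seen. Likeness is Pearson's r of log2(value + 1). Each library is 1 mouse, so p-values measure the spread between these mice.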

Additional observations from a re-analysis of the deposited data

Results flagged for a closer look

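Nfkbiz in 3-month HEM replicate 7, at 5143.7 normalized counts, lay far below the other 3 libraries of its group, which held 10280.2 to 10992. Its gap to the nearest of them was 0.912 of the range of the group, above the 95% critical value of 0.829 of Dixon's test for 4 samples. In all, 30 such tests were made over the 10 genes and the 3 groups of 4 to 10 libraries, and chance flags about 1 in 20 groups. The cause was not tested.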

How the results depend on the processing

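In HEM against WT at 13 months the count of called genes was 4, and stayed at 4 or 5 across the 19 fits that left out 1 library each. It was 0 with the replicate block, 0 with the neutrophil and erythroid marker covariate and 0 with the immediate early gene covariate. With the replicate block the log2 differences were 0.88 for Nfkbia, 1.94 for Nfkbid, 1.72 for Nfkbiz and 1.18 for Tnfaip3. The numbers in the labels do not pair the libraries: deviations of same-numbered libraries correlated at -0.0675 to 0.173 over 11 pairs. The other 12 alternatives gave 4 or 5, and none of the results turned its direction past the threshold. In 13 against 3 months in WT the count was 0, and 0 to 3 with 1 library left out; it was 1 with a filter at 50, 1 in a fit of the 2 groups compared, 2 without 13-month HEM replicates 1 and 11 and 3-month HEM replicate 3, 4 with DESeq2 and 5 with limma voom. For the difference of the genotype effects it was 0, and 1 with DESeq2. The other counts did not move. The cause of these differences was not tested. With 3 and 4 mice a group, wide intervals at 3 months limit what could be detected, and thinning to 60 M reads per library left each count as it was.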
